A study of Mus musculus with 3 samples.

Results

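The genes described here are 10 genes of interleukin 1 signalling and of the inflammasome: the agonist ligands *Il1a* and *Il1b*, the receptor antagonist *Il1rn*, the signalling receptor *Il1r1*, the decoy receptor *Il1r2*, the accessory receptor chain *Il1rap*, and the inflammasome genes *Nlrp3*, *Casp1*, *Pycard*, and *Casp4*. They were taken by gene symbol from the 27998 genes listed in each library, and all 10 were found. The cells came from 10-week-old male C57BL/6J mice, 3 days after a burn to the back combined with full transection of the Achilles tendon (burn/tenotomy), and 1 unsorted single-cell library each stood for bone marrow, blood, and the site of the tendon injury. Bone marrow was flushed from femurs, blood was reduced to the mononucleated cells of a Ficoll gradient, both had red blood cells lysed, and the tendon injury site was digested with collagenases and dispase at 37 °C. All 3 groups shared the same injury, no library of uninjured mice was analysed here, and the sources used here do not give how many mice were behind a library. Because each tissue had 1 library, no test between tissues was possible, and tissue, preparation, and library cannot be told apart.

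Interleukin 1 alpha and interleukin 1 beta start inflammation by binding the receptor IL1R1, which then recruits the accessory chain IL1RAP and signals inside the cell. The antagonist IL1RN occupies IL1R1 without signalling, and IL1R2 binds the ligands but lacks a signalling domain, so both limit the response. Interleukin 1 beta is made as an inactive precursor that is cut by caspase 1 (CASP1) within the inflammasome, a complex in which the sensor NLRP3 is joined to caspase 1 by the adaptor ASC (encoded by *Pycard*), while caspase 11 (encoded by *Casp4* in mice) responds to bacterial lipopolysaccharide in the cytosol. Neutrophils and monocytes are known sources of these ligands at sites of injury.

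Shown first are the windows from 250 bases before to 50 bases after the start, on the gene's strand, from RefSeq on GRCm38.p6, for the genes on which the comparison of agonist with antagonist and decoy turns, with 1 of the 3 *Il1rn* windows in the table. *Il1b* lies on the minus strand (chr2:129371090-129371389), as does *Il1a* (chr2:129309923-129310222), whereas the *Il1rn* window (chr2:24345041-24345340) and the *Il1r2* window (chr1:40085843-40086142) lie on the plus strand. Capitals mark matches to a C/EBP motif (TTNNGNAA) and to a TATA box (TATAAA), both searched on both strands.
Il1b: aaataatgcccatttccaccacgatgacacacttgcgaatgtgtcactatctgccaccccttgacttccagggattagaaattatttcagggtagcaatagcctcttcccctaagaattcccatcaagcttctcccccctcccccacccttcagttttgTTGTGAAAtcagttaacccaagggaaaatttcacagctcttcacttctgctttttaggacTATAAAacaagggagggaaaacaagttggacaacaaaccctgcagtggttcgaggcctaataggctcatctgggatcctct
Il1a: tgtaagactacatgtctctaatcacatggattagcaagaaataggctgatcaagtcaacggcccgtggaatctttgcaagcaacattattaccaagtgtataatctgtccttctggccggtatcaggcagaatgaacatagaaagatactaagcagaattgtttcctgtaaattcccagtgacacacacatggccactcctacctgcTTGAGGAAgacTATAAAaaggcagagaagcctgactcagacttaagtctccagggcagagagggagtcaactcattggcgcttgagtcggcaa
Il1rn: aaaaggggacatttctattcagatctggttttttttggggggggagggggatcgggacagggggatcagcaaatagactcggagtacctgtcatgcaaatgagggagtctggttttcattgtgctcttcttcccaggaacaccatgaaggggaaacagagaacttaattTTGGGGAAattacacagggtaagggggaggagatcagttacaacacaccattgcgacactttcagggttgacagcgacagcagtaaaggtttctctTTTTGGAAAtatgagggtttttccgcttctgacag
Il1r2: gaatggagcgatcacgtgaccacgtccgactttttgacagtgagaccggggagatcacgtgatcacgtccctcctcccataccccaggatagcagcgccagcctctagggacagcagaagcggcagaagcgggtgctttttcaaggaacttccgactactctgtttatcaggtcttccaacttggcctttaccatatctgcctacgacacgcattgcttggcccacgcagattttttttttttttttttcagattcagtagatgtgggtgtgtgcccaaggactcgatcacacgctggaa
Both agonist windows held a TATA box, at position -31 from the start in *Il1b* and at -32 in *Il1a*, and a C/EBP match, at -91 and -43. The C/EBP match of *Il1a* overlapped its match to a PU.1 core (AGGAAG) at -40. The *Il1rn* window held 3 C/EBP matches, of which the last 2 overlapped each other, and no TATA box, and the *Il1r2* window held neither. Of the other *Il1rn* windows, 1 overlapped the window shown and held a TATA box match 15 bases after its start. All 10 genes had at least 1 window in the promoter table, 15 in total. A C/EBP match was present in 11 of these windows, from 7 genes, against 40.7% of all 32851 promoters, and a TATA box in 3 windows, from 3 genes, against 13.6% of all promoters. A loose NF-kB motif (3 G, any 5 bases, then 2 C) was present in 10 windows of 6 genes against 50.8% of all promoters, an AP-1 motif (TGANTCA) in 2 windows of 2 genes against 7.81%, and the PU.1 core in 6 windows of 5 genes against 35.4%. These are descriptions of letters, and binding at them was not measured.

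In the GENCODE annotation of GRCm38, *Il1b* spans chr2:129364570-129371139 and *Il1a* chr2:129299610-129309972, both on the minus strand, and *Il1rn* lies elsewhere on the same chromosome (chr2:24336853-24351494, plus strand). The receptor genes *Il1r2* (chr1:40074079-40125231) and *Il1r1* (chr1:40225080-40317257) lie close together on the plus strand, and so do *Casp1* (chr9:5298517-5307265) and *Casp4* (chr9:5308828-5336783). *Il1rap* lies at chr16:26581704-26730117 on the plus strand, *Nlrp3* at chr11:59541568-59566956 on the plus strand, and *Pycard* at chr7:127989708-127993867 on the minus strand. Libraries of this type count molecules at the 3′ end of transcripts, and the counts used here are summed for each gene. They therefore do not separate the soluble from the membrane-bound products of *Il1rap* or the secreted from the intracellular products of *Il1rn*.

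After filtering, 1813 bone marrow, 2146 blood, and 4780 tendon cells were kept, with medians of 22893, 8361.5, and 12178 unique molecular identifiers (UMIs) per cell, and pairs of libraries shared between 1 and 6 cell barcodes. Clusters were named by fixed markers, and the 10 genes did not take part in the clustering. Neutrophil-like cells numbered 976 in bone marrow (53.8% of cells), 390 in blood (18.2%), and 565 in tendon (11.8%), and monocyte/macrophage-like cells made up 360, 462, and 2268. The blood neutrophils are thus only those retained by the gradient. Levels are given as the UMIs of a gene summed over the cells of a class, scaled to 1000000 UMIs of that class (CPM), with exact 95% Poisson intervals. Like all intervals here, these cover only counting error, of UMIs or of cells, within 1 library per tissue. Neutrophil-like cells differed in depth between tissues, with a median of 20002.5 UMIs for bone marrow cells, 8534.5 for blood cells, and 3480 for tendon cells. Their 15 mature neutrophil markers summed to 412947, 368110, and 205469 CPM in that order (1 marker at 0 in bone marrow and 1 in blood). The 14 macrophage markers summed to 13 CPM in bone marrow (3 markers at 0), 120 CPM in blood (6 at 0), and 1948 CPM in tendon (none at 0), against 21207 CPM in tendon monocyte/macrophage-like cells, and their part in the results below was not tested.

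**Figure D1:**
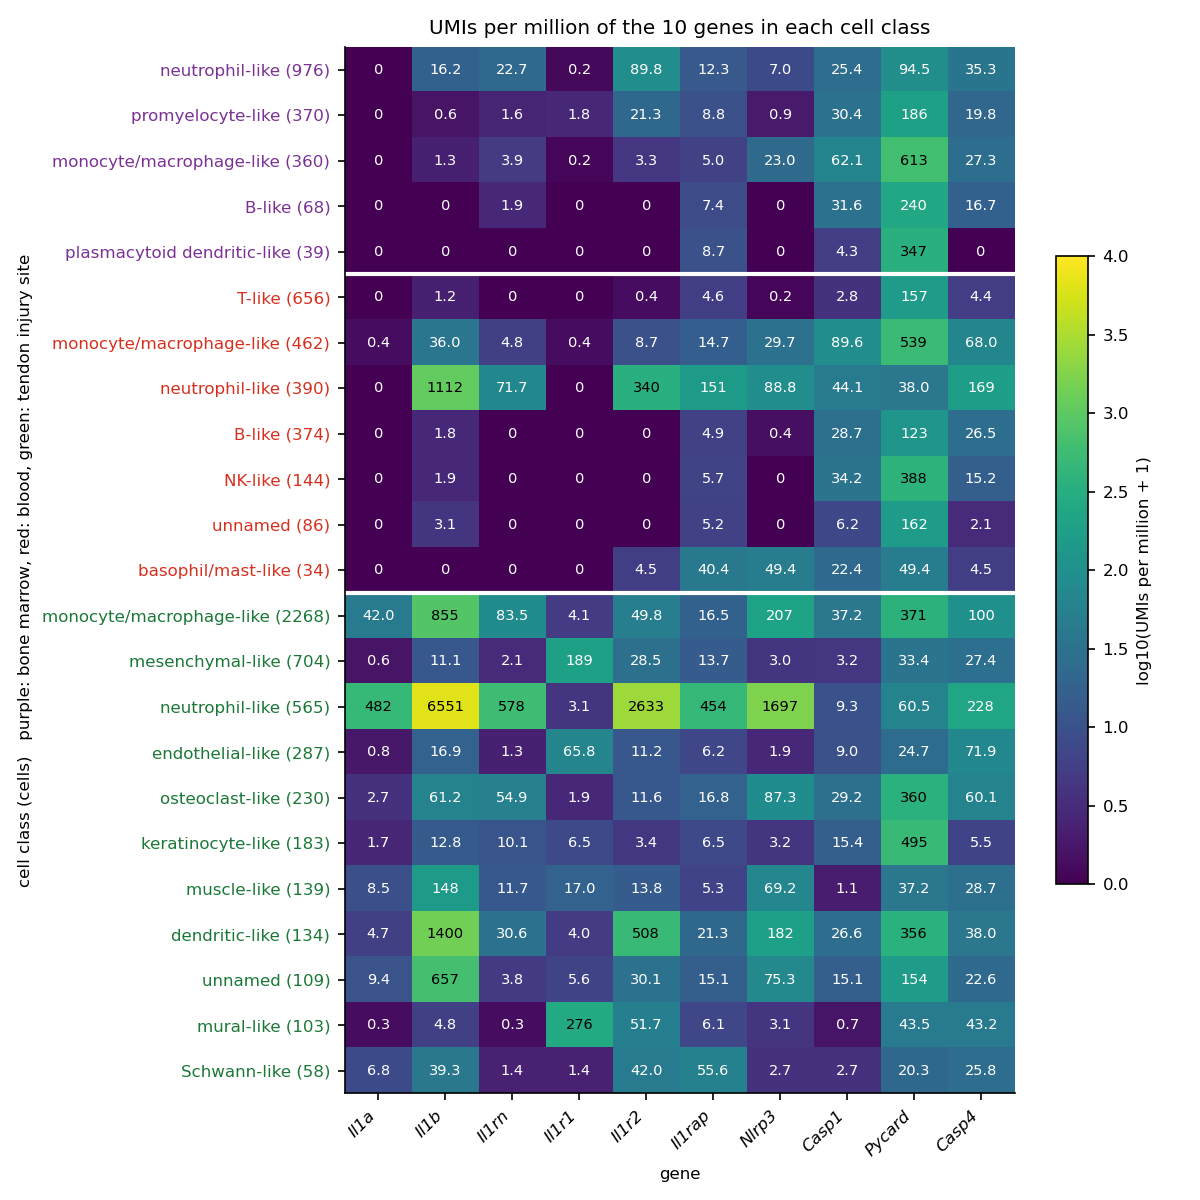
Level of each of the 10 genes (columns) in every cell class (rows, with cell numbers), in CPM, with purple labels for bone marrow, red for blood, and green for tendon, and with colour on a log10 scale. The row of tendon neutrophil-like cells holds the highest value for *Il1a*, *Il1b*, *Il1rn*, *Il1r2*, *Il1rap*, *Nlrp3*, and *Casp4*, and *Il1r1* is highest in mural-like and mesenchymal-like cells.

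The agonist *Il1b* was the most abundant of the 10 genes in neutrophil-like cells of blood and tendon, and its level differed widely between tissues. It stood at 16.2 CPM in bone marrow (343 UMIs), 1112 CPM in blood (4157 UMIs), and 6551 CPM in tendon (14729 UMIs; interval 6446 to 6658). The tendon level was 5.89-fold (interval 5.69 to 6.10) that of blood, and the blood level was 68.6-fold (61.4 to 76.8) that of bone marrow. Thus the tissues were well separated relative to counting error, with bone marrow lowest and tendon highest. The other agonist, *Il1a*, had no UMI in neutrophil-like cells of bone marrow or blood, whereas tendon neutrophil-like cells held 1083 UMIs (482 CPM, interval 453 to 511). With blood set at a limit of 3 UMIs (0.803 CPM), the tendon level was 9.23 higher on the log2 scale. The exact interval of the blood level reached 0.987 CPM, slightly above that limit.

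Monocyte/macrophage-like cells showed the same order of tissues for *Il1b* at lower levels, and their *Il1a* was likewise highest in tendon. From bone marrow through blood to tendon, *Il1b* stood at 1.27, 36.0, and 855 CPM, and *Il1a* at 0, 0.378, and 42.0 CPM. All 3 *Il1a* UMIs of blood monocyte/macrophage-like cells lay in a cluster of 39 macrophage-like cells. Of the other tendon classes, dendritic-like cells held 1400 CPM of *Il1b* (1341 to 1461), second to the neutrophil-like cells, but 4.66 CPM of *Il1a*. Mesenchymal-like, mural-like, and keratinocyte-like cells held between 4.76 and 12.8 CPM of *Il1b*, endothelial-like cells 16.9 CPM, with 111 of their 145 UMIs in 1 cell, and blood T-like, B-like, and NK-like cells between 1.23 and 1.90 CPM. Hence *Il1b* transcripts were concentrated in myeloid classes, and the ranking of neutrophil-like, dendritic-like, and pooled monocyte/macrophage-like tendon cells had no overlap of intervals. The pooled class held clusters on both sides of the dendritic-like level. Its monocyte-like clusters stood at 1918 CPM of *Il1b*, above dendritic-like cells, and its macrophage-like clusters at 228 CPM, below them.

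The antagonist *Il1rn* followed *Il1b* by tissue in neutrophil-like cells but covered a narrower range. In neutrophil-like cells it stood at 22.7 CPM in bone marrow (479 UMIs), 71.7 CPM in blood (268 UMIs), and 578 CPM in tendon (1300 UMIs; 547 to 611). The tendon level was 8.06-fold (7.07 to 9.23) that of blood, while the blood level was 3.16-fold (2.71 to 3.68) that of bone marrow. In monocyte/macrophage-like cells, *Il1rn* stood at 3.91 (2.79 to 5.33), 4.79 (3.39 to 6.57), and 83.5 CPM. The bone marrow and blood levels of this class could not be separated by counting error. Tendon osteoclast-like cells were named by markers of osteoclasts, resorbing cells of the monocyte lineage, and resorption was not measured. They held 54.9 CPM (48.5 to 62.0), dendritic-like cells 30.6 CPM, and keratinocyte-like cells 10.1 CPM. The other named tendon classes held 11.7 CPM or less.

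The decoy receptor *Il1r2* was the second most abundant of the 10 genes in blood and tendon neutrophil-like cells. Its level was 89.8 CPM in bone marrow (1899 UMIs), 340 CPM in blood (1272 UMIs), and 2633 CPM in tendon (5920 UMIs; 2567 to 2701). The tendon level was 7.74-fold (7.28 to 8.23) that of blood, and the blood level 3.79-fold (3.53 to 4.07) that of bone marrow. In bone marrow, promyelocyte-like cells held 21.3 CPM and monocyte/macrophage-like cells 3.32 CPM. In tendon, dendritic-like cells held 508 CPM, pooled monocyte/macrophage-like cells 49.8 CPM (47.2 to 52.4), and mural-like cells 51.7 CPM (43.8 to 60.6). The pooled value hides a difference within the class. Its monocyte-like clusters held 117 CPM (110 to 123), above mural-like cells, and its macrophage-like clusters 10.3 CPM (8.88 to 11.9), below them. The 42.0 CPM of Schwann-like cells rested on 1 cell, which held 30 of the 31 UMIs. Mesenchymal-like cells held 28.5 CPM. Relative to the neutrophil-like level, *Il1r2* stood at 1.08% in mesenchymal-like and 1.96% in mural-like cells, where *Il1b* stood at 0.169% and 0.0726% and the summed mature neutrophil markers at 0.270% and 0.0814%. The part of neutrophil transcripts in the *Il1r2* levels of these 2 classes was not tested.

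**Figure D2:**
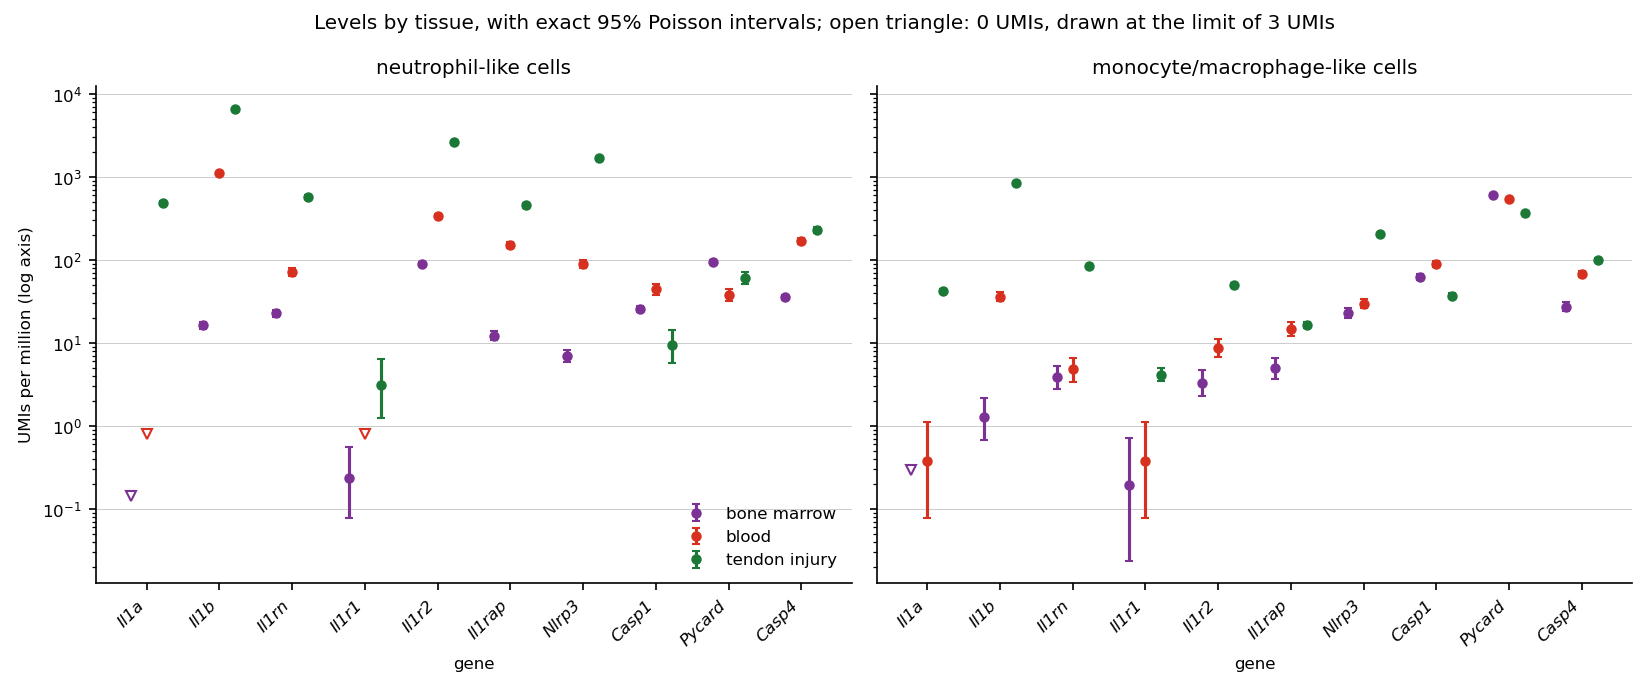
Levels of the 10 genes in neutrophil-like (left) and monocyte/macrophage-like cells (right) in the 3 tissues, in CPM on a log axis with exact 95% Poisson intervals and 1 library per tissue. Open triangles are counts of 0 drawn at the limit of 3 UMIs. *Il1a*, *Il1b*, *Il1rn*, *Il1r2*, and *Nlrp3* are highest in tendon in both classes, and *Casp1* is lowest there.

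To compare agonist with antagonist and decoy without any scaling by library, UMIs of both genes were set against each other within the same cells. In bone marrow neutrophil-like cells, *Il1b* had 0.716 UMIs (0.622 to 0.824) for each *Il1rn* UMI and 0.181 (0.161 to 0.203) for each *Il1r2* UMI, so antagonist and decoy both outnumbered the agonist. In blood, *Il1b* had 15.5 UMIs (13.7 to 17.6) per *Il1rn* UMI and 3.27 (3.07 to 3.48) per *Il1r2* UMI. In tendon, these values were 11.3 (10.7 to 12.0) and 2.49 (2.41 to 2.56). The agonist thus led in blood and in tendon, and both ratios were lower in tendon than in blood, by more than counting error. Adding *Il1a* to the agonists gave 12.2 UMIs (11.5 to 12.9) per *Il1rn* UMI in tendon, still below the blood value.

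Among the other cells the balance varied with the class. Monocyte/macrophage-like cells had 0.325 (0.159 to 0.620) *Il1b* UMIs per *Il1rn* UMI in bone marrow, against 7.53 (5.35 to 10.9) and 10.2 (9.81 to 10.7) in the blood and tendon libraries. Tendon monocyte-like clusters had 20.6 (19.4 to 22.0) and macrophage-like clusters 2.92 (2.75 to 3.11). Their *Il1b* level was 1918 CPM in the monocyte-like and 228 CPM in the macrophage-like clusters, whereas *Il1rn* differed less, at 92.9 and 78 CPM. In these pooled levels, the lower ratio of macrophage-like clusters thus went with a lower agonist level and not with a higher antagonist level. Single clusters varied in *Il1rn* and are described below. Osteoclast-like cells had 1.11 (0.940 to 1.32) *Il1b* UMIs per *Il1rn* UMI, an interval that included equal numbers, and dendritic-like cells had 45.7 (34.1 to 62.6). Against the decoy, dendritic-like cells had 2.76 (2.54 to 3.00) *Il1b* UMIs per *Il1r2* UMI, and monocyte/macrophage-like cells had 17.2 (16.3 to 18.1). In mesenchymal-like cells the decoy outnumbered *Il1b*, with 0.389 (0.338 to 0.445) *Il1b* UMIs per *Il1r2* UMI.

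**Figure D3:**
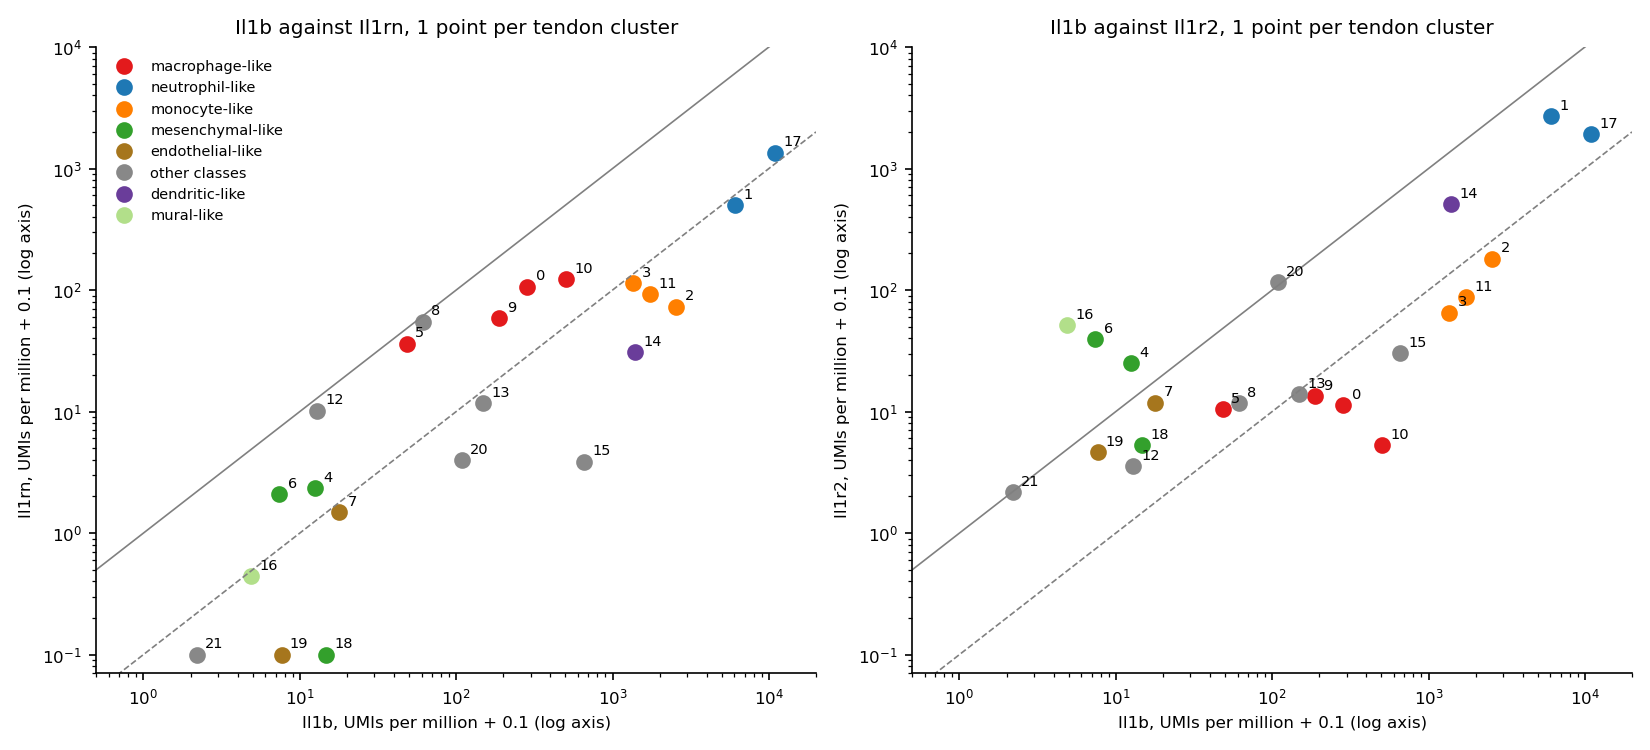
*Il1b* level (x axis) against *Il1rn* (left) or *Il1r2* (right) in each tendon cluster, in CPM plus 0.1 on log axes, with numbers naming the clusters; the solid line marks equal levels and the dashed line 10 times more *Il1b*. Macrophage-like clusters (red) lie closer to the solid line for *Il1rn* than monocyte-like clusters (orange), and mesenchymal-like clusters 4 and 6 and the mural-like cluster lie above it for *Il1r2*.

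The signalling receptor *Il1r1* was found in other cells than its ligands. In tendon it stood at 276 CPM (258 to 296) in mural-like cells, 189 CPM (183 to 194) in mesenchymal-like cells, and 65.8 CPM (60.5 to 71.5) in endothelial-like cells, with no overlap of intervals. Other tendon classes held 17.0 CPM or less, monocyte/macrophage-like cells 4.15 CPM, and neutrophil-like cells 3.11 CPM from 7 UMIs. *Il1r1* had no UMI in the 390 blood neutrophil-like cells, and bone marrow neutrophil-like cells held 5 UMIs. The blood library held 3 *Il1r1* UMIs in all, in the 39 macrophage-like cells. For each *Il1r1* UMI, tendon neutrophil-like cells held 846 *Il1r2* UMIs (410 to 2104), while mesenchymal-like cells held 0.151 (0.140 to 0.163), mural-like cells 0.187 (0.156 to 0.223), and endothelial-like cells 0.170 (0.136 to 0.212). The neutrophil-like value rests on 7 *Il1r1* UMIs. Tendon dendritic-like cells held 127 (58.1 to 347), monocyte/macrophage-like cells 12.0 (9.92 to 14.6), and osteoclast-like cells 6.22 (3.05 to 14.3). Decoy transcripts thus outnumbered those of the signalling receptor in neutrophil-like cells and in these other myeloid classes, and the reverse held in the stromal and vascular classes.

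The accessory chain *Il1rap*, needed for signalling and also able to bind ligand together with IL1R2, was found in every class and was highest in tendon neutrophil-like cells. Neutrophil-like cells of bone marrow held 12.3 CPM, those of blood 151 CPM, and those of tendon 454 CPM (427 to 483), and the tendon level was 3.00-fold (2.70 to 3.33) that of blood. Monocyte/macrophage-like cells held 4.99, 14.7, and 16.5 CPM, and their tendon and blood levels differed by no more than counting error (log2 ratio 0.16; -0.14 to 0.46). Among the other tendon classes, Schwann-like cells held 55.6 CPM (39.9 to 75.4), and mesenchymal-like cells, which held most *Il1r1* transcripts, held 13.7 CPM.

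The inflammasome genes differed in direction. The sensor *Nlrp3* stood at 7.0 CPM in bone marrow neutrophil-like cells (148 UMIs), 88.8 CPM in blood (332 UMIs), and 1697 CPM in tendon (3816 UMIs; 1644 to 1752), 19.1-fold (17.1 to 21.4) higher in tendon than in blood. The protease *Casp1* was instead lowest in tendon, with 25.4 CPM in bone marrow (538 UMIs), 44.1 CPM in blood (165 UMIs), and 9.34 CPM in tendon (21 UMIs, interval 5.78 to 14.3). Its tendon level was 0.212-fold (0.128 to 0.334) that of blood. In mature clusters alone, its blood level was 1.16-fold (0.929 to 1.45) that of bone marrow, an interval that included no difference. *Nlrp3* was thus the gene with the largest difference upward among those with UMIs in both tissues, and *Casp1* the only one of the 10 that was lower in tendon than in blood by more than 2-fold. The adaptor *Pycard* stood at 94.5, 38.0, and 60.5 CPM, and *Casp4* at 35.3, 169, and 228 CPM. As a result, the number of *Casp1* UMIs per *Casp4* UMI in neutrophil-like cells was 0.721 (0.644 to 0.807), 0.262 (0.219 to 0.311), and 0.0410 (0.0252 to 0.0634), in that order of tissues.

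In monocyte/macrophage-like cells, *Nlrp3* was likewise higher in tendon (23.0, 29.7, and 207 CPM in bone marrow, blood, and tendon) and *Casp1* lower (62.1, 89.6, and 37.2 CPM). *Pycard* was abundant in all 3 tissues, at 613, 539, and 371 CPM, and *Casp4* stood at 27.3, 68.0, and 100 CPM. The tendon level of *Pycard* was below that of blood in this class (log2 ratio -0.54; -0.59 to -0.49), but in the monocyte-like clusters alone it was slightly higher (0.14; 0.07 to 0.21). *Casp1* UMIs per *Casp4* UMI had the same order of tissues as in neutrophil-like cells, at 2.28 (1.97 to 2.63), 1.32 (1.18 to 1.48), and 0.371 (0.346 to 0.399). Outside the myeloid classes, keratinocyte-like cells held 495 CPM of *Pycard* (480 to 511) and endothelial-like cells 71.9 CPM of *Casp4* (66.3 to 77.8).

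Counting the genes past a 2-fold difference placed these values beside all other genes. The 10 genes were chosen with earlier results of these data known. The counts here and for the mature clusters below are therefore descriptions and not a test of the genes as a set. Of the 9 genes with at least 20 UMIs over tendon and blood neutrophil-like cells, 6 were higher in tendon (*Il1a*, *Il1b*, *Il1rn*, *Il1r2*, *Il1rap*, *Nlrp3*) and 1 was lower (*Casp1*), against 16.0% of 6851 genes higher and 16.1% lower. The median log2 ratio was 2.56 for the 9 genes, with *Il1a* in blood taken at the limit of 3 UMIs, and -0.07 for all genes tested. For blood against bone marrow neutrophil-like cells, 6 of 8 genes were higher and 1, *Pycard*, was lower, against 13% of 9374 genes higher and 27.3% lower. For tendon against blood monocyte/macrophage-like cells, 6 of 10 were higher (*Il1a*, *Il1b*, *Il1rn*, *Il1r1*, *Il1r2*, *Nlrp3*) and *Casp1* was lower, against 16.9% of 11832 genes higher and 14.2% lower. *Il1a* had 1083 and 0 UMIs in tendon and blood neutrophil-like cells and 1184 and 3 in monocyte/macrophage-like cells. In the latter, *Il1r1* had 117 and 3. These genes passed the limit of 20 UMIs only through tendon, so a call of lower was not open to them. Within tendon, 7 of 10 were higher in neutrophil-like than in monocyte/macrophage-like cells and 2, *Casp1* and *Pycard*, were lower, against 10.4% of 11500 genes higher and 58.2% lower. Since the median gene differed by -1.40 on the log2 scale in that comparison, ratios were also taken relative to it. Then 7 were higher and 1, *Pycard*, was lower, against 30% of all genes higher and 31.3% lower.

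Since the tissues held immature cells in different numbers, the granulocyte clusters were examined one by one. In bone marrow, *Il1b* lay mostly in 1 of the 3 mature neutrophil-like clusters, with 167 CPM in cluster 3 (334 of the 343 UMIs of neutrophil-like cells), 4.53 CPM in cluster 8, and no UMI in cluster 6. The 2 promyelocyte-like and 4 immature neutrophil-like clusters held at most 5 *Il1b* UMIs each. *Il1r2* was spread more evenly, with 4.93 and 37.2 CPM in promyelocyte-like clusters, 18.6 to 71.4 CPM in immature clusters, and 127 to 277 CPM in mature clusters. *Il1rn* likewise ranged from 3.18 to 29.0 CPM in immature and from 33.3 to 56.9 CPM in mature clusters. Decoy and antagonist transcripts were therefore present in bone marrow stages in which *Il1b* transcripts were nearly absent. In blood the levels were likewise lower in the immature cluster, but *Il1b* was present there, with 172 CPM of *Il1b* in 61 immature and 1475 CPM in 329 mature cells, against 206 and 392 CPM of *Il1r2* and 34.6 and 86.0 CPM of *Il1rn*.

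Among mature clusters alone, the blood level was 28.2-fold (25.2 to 31.6) that of bone marrow for *Il1b*, 8.69-fold (7.21 to 10.5) for *Il1rap*, 5.03-fold (4.11 to 6.17) for *Nlrp3*, 2.11-fold (1.94 to 2.30) for *Il1r2*, and 1.85-fold (1.56 to 2.21) for *Il1rn*. Of 8 genes tested, 5 were higher and 1, *Pycard*, was lower by 2-fold, against 11.3% of 7130 genes higher and 9.40% lower. For tendon against blood, the mature clusters gave 4.44-fold (4.29 to 4.6) for *Il1b*, 6.72-fold (5.84 to 7.76) for *Il1rn*, 6.72-fold (6.29 to 7.18) for *Il1r2*, and 15.2-fold (13.5 to 17.2) for *Nlrp3*. Here 7 of 9 genes were higher, *Pycard* among them at 2.30-fold (1.71 to 3.11), and *Casp1* was lower, against 17.6% of 6406 genes higher and 15.2% lower. *Il1a*, with no UMI in the blood cluster, passed the UMI limit only through tendon, so a call of lower was not open to it. The part of macrophage transcripts in the *Pycard* value was not tested. From bone marrow to blood *Il1b* thus differed by more than antagonist and decoy, and from blood to tendon by less. With blood at the limit of 3 UMIs, *Il1a* was 8.76 higher in tendon on the log2 scale.

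The tendon library held 2 mature neutrophil-like clusters. The larger, with 468 cells, held 361 CPM of *Il1a*, 6100 CPM of *Il1b*, 498 CPM of *Il1rn*, and 2708 CPM of *Il1r2*. The smaller, with 97 cells led by *Ccl3*, *Il1a*, and *Cxcl3*, held 1653 CPM of *Il1a*, 10937 CPM of *Il1b*, and 1353 CPM of *Il1rn*, but 1910 CPM of *Il1r2*. Its cells therefore had more of both agonists and of the antagonist and less of the decoy. They were also shallower (median 2077 against 3811 UMIs), with less *S100a8*, an abundant neutrophil alarmin transcript (18997 against 78989 CPM), and a higher sum of macrophage markers (3330 against 1805 CPM). The part of these differences in the levels was not tested. The *Il1a* level of the smaller cluster was well above the 59.8 CPM of tendon monocyte-like and the 31.5 CPM of tendon macrophage-like cells.

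**Figure D4:**
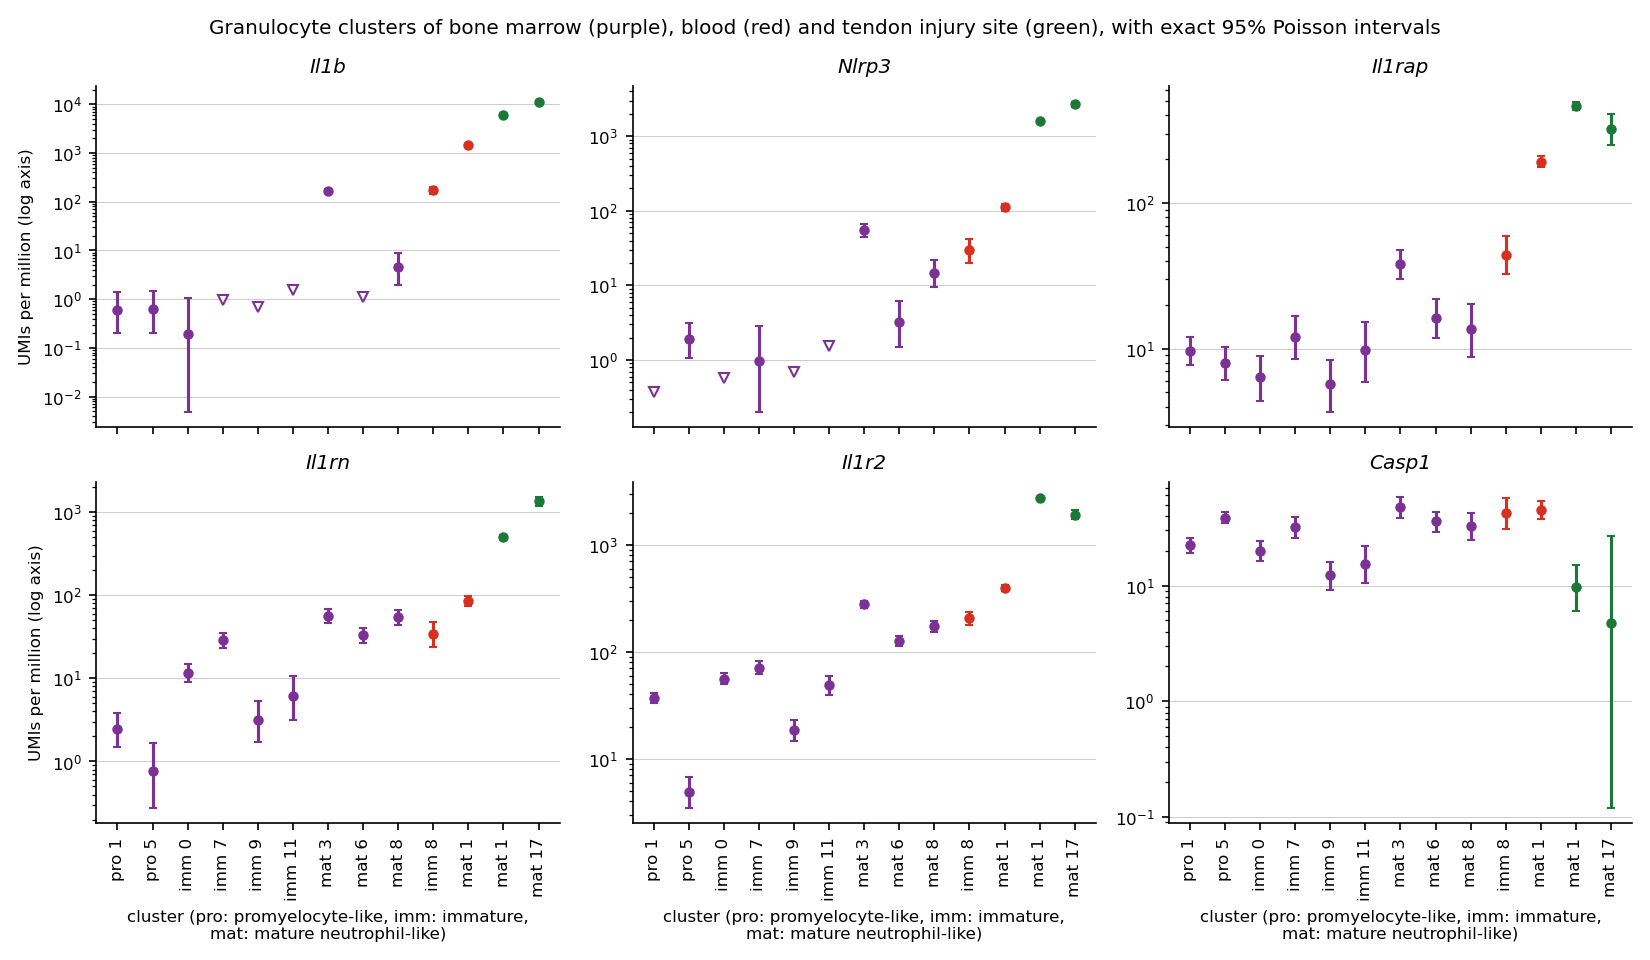
Levels of 6 genes in each granulocyte cluster (purple for bone marrow, red for blood, green for tendon), ordered from promyelocyte-like (pro) through immature (imm) to mature (mat) clusters, in CPM on a log axis with exact 95% Poisson intervals; open triangles are counts of 0 drawn at the limit of 3 UMIs. In bone marrow, *Il1b* and *Nlrp3* are at 1.90 CPM or less before the mature clusters, where *Il1r2* and *Il1rn* are already found. In the immature blood cluster *Il1b* stands at 172 CPM and *Nlrp3* at 29.8 CPM, and *Casp1* is lowest in the tendon clusters.

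Monocyte- and macrophage-like clusters of tendon also differed among themselves. *Il1b* stood at 2555, 1359, and 1730 CPM in the 3 monocyte-like clusters (clusters 2, 3, and 11) and at 285, 48.2, 188, and 503 CPM in the 4 macrophage-like clusters (clusters 0, 5, 9, and 10). The lowest was cluster 5, led by *Ccl8* and *Cd163*, and the highest macrophage-like cluster was cluster 10, led by *Arg1*. *Il1rn* ranged less, from 72.7 to 114 CPM in the monocyte-like and from 36.1 to 122 CPM in the macrophage-like clusters. Accordingly, *Il1b* UMIs per *Il1rn* UMI ran from 12.0 to 35.1 in the former and from 1.33 to 4.11 in the latter. Cluster 10 also held 105 CPM of *Il1a*, the highest of the monocyte- and macrophage-like clusters, and cluster 9, led by interferon-induced genes, the lowest at 7.39 CPM. In blood, *Il1b* stood at 28.6 CPM in the classical monocyte-like cluster 3 and at 126 CPM in the *Cd300e* and *Ace* cluster 6.

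Although the *Il1b* level was higher in tendon neutrophil-like cells, monocyte/macrophage-like cells held the larger share of its UMIs in the tendon library. They were more numerous and also deeper, with a median of 11808.5 against 3480 UMIs per cell. The shares describe the captured cells of 1 digested library. Neutrophil-like cells, 11.8% of tendon cells, held 34.8% of the tendon *Il1b* UMIs (34.4% to 35.3%, Clopper-Pearson), monocyte/macrophage-like cells 57.0%, and dendritic-like cells 4.97%. *Il1a* (46.2% and 50.6%), *Il1rn* (31.5% and 57.1%), and *Nlrp3* (36.0% and 55.2%) were divided between neutrophil-like and monocyte/macrophage-like cells in a like way. *Il1r2* differed, with 64.2% (63.2% to 65.2%) in neutrophil-like and 15.2% in monocyte/macrophage-like cells, as did *Il1rap*, with 47.8% and 21.7%. *Il1r1* lay in mesenchymal-like (75.8%; 74.7% to 76.8%), mural-like (12.4%), and endothelial-like cells (8.61%). Neutrophil-like cells held 1.36% of *Casp1*, 0.751% of *Pycard*, and 9.75% of *Casp4* UMIs, and monocyte/macrophage-like cells 67.8%, 57.8%, and 53.8%.

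**Figure D5:**
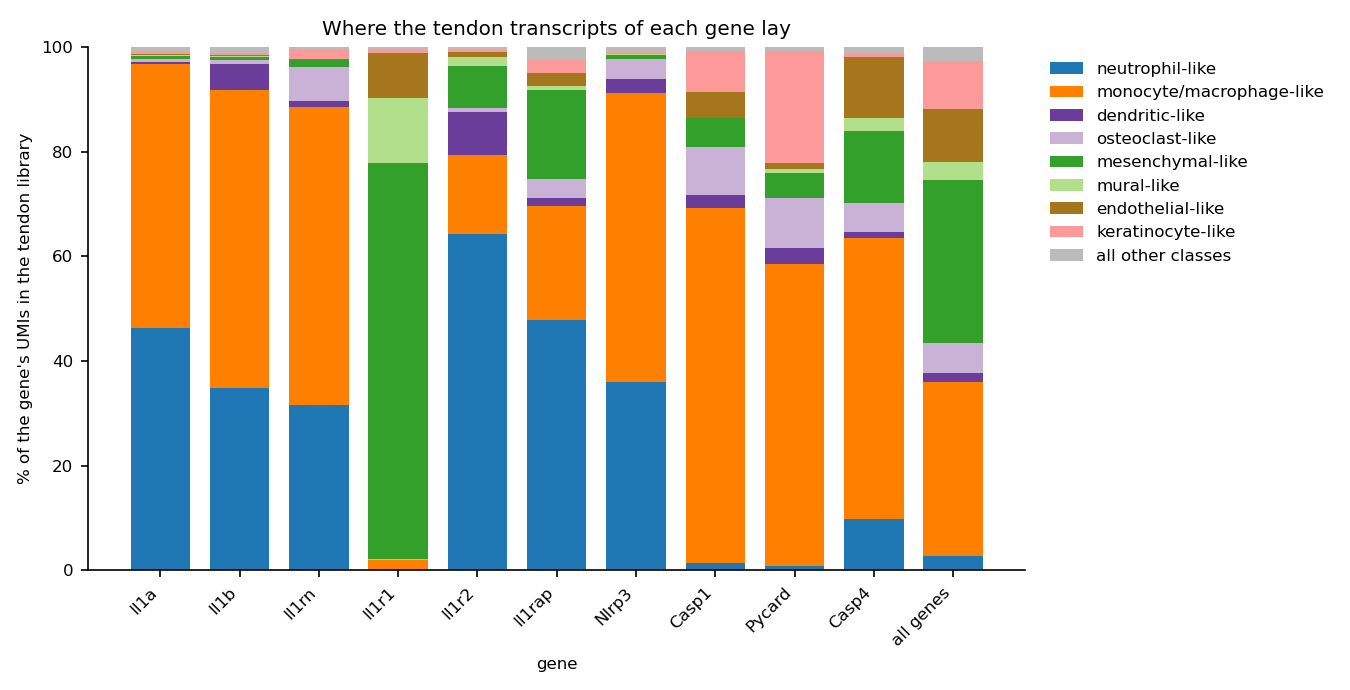
Share (%) of each gene's tendon UMIs held by each cell class, with all genes together in the last bar. Neutrophil-like cells (blue) hold 64.2% of *Il1r2*, 46.2% of *Il1a*, and 34.8% of *Il1b*, while mesenchymal-like cells (green) hold 75.8% of *Il1r1*.

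The share of cells with a transcript was compared after each cell was thinned to 1000 UMIs, which kept 968 neutrophil-like cells from bone marrow, 387 from the blood library, and 541 from tendon and left out 8, 3, and 24. *Il1b* was found in 3.00% (2.02% to 4.27%), 61.0% (55.9% to 65.9%), and 93.7% (91.3% to 95.6%) of them, and before thinning in 8.61%, 88.7%, and 97.5%. Shares before thinning were 72.5%, 85.1%, and 91.9% for *Il1r2*, 32.6%, 43.6%, and 61.4% for *Il1rn*, and 0%, 0%, and 35.4% for *Il1a*, in the same order. In classes that should lack it, *Il1b* was found after thinning in 0 of 651 blood T-like cells, which allows up to 0.565%, and in 0.350% of tendon endothelial-like cells (median depths 8664.5 and 20393 UMIs), and before thinning in 1.07% and 9.41%. *Il1r2* was found in 10.7%, 32.0%, and 79.9% of neutrophil-like cells, against 0.154% of blood T-like and 1.05% of tendon endothelial-like cells. *Il1rn* was found in 2.17%, 5.43%, and 36.0%, and *Il1a* in 0%, 0%, and 22.6%, with neither in any thinned T-like or endothelial-like cell. *Nlrp3* was found in 2.17%, 7.24%, and 67.5% of neutrophil-like cells and *Casp1* in 2.07%, 4.13%, and 0.555%, with neither in any of the 651 T-like or 286 endothelial-like cells. Most of these shares were higher in the 100 thinned muscle-like tendon cells (median depth 1924 UMIs before thinning). There, *Nlrp3* was found in 20%, *Il1b* in 19%, *Il1rn* in 4%, *Il1r2* in 3%, *Il1a* in 1%, and *Casp1* in none. The part of background in the muscle-like shares was not tested. Tendon thus exceeded blood for these agonist, antagonist, and decoy genes in the share of cells as well as in level, and few tendon neutrophil-like cells lacked *Il1b*.

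Within tendon neutrophil-like cells, agonist and limiting genes were found in the same cells. Since 93.7% of the thinned cells held *Il1b*, most cells with *Il1r2* or *Il1rn* would hold it in any case. The shares with both genes therefore show no link between them. Of 541 thinned cells, 75.8% held *Il1b* and *Il1r2*, and 34.9% held *Il1b* and *Il1rn*. *Il1rn* was found in 37.3% of the 507 cells with *Il1b* and in 17.6% of the 34 without, and in 50% of the 122 cells with *Il1a* and 32.0% of the 419 without. Both tendon neutrophil-like clusters were pooled here, and the part of their different *Il1a*, *Il1b*, and *Il1rn* levels in these shares was not tested. *Il1r2* was found in 79.5% of cells with *Il1rn* and 80.1% of cells without. *Il1a* was the more unevenly held agonist, since the 56 cells richest in it carried 65.4% of its UMIs, against 29.7% for *Il1b*, 46.4% for *Il1rn*, and 29.7% for *Il1r2* in the 56 cells richest in each. After thinning, the corresponding shares were 72.8% for *Il1a* and 32.0% for *Il1b*. *Il1a* had fewer UMIs (1083 against 14729), and the part of its lower count and of the 2 clusters in these shares was not tested. In tendon monocyte/macrophage-like cells, the 227 richest cells carried 85.1% of *Il1a*, 62.4% of *Il1b*, 58.8% of *Il1rn*, and 80.0% of *Il1r2* UMIs.

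Across the 19 classes with at least 50 cells, which share 3 libraries and differ in depth, other genes were ranked by the Pearson correlation of their log2(CPM + 1) levels with those of 4 of the genes, as a description only. Most like *Il1b* were *Slc7a11* (r = 0.946), *Smox* (0.908), and *Nlrp3* (0.904). *Il1rn* was most like *Adam8* (0.958), *Rhov* (0.947), and *Clec4e* (0.917), and *Il1r2* most like *Ifitm1* (0.897), *Trem1* (0.867), and *Ndel1* (0.865). *Il1r1* was most like *Mgp* (0.967), *Il6* (0.966), and *Col6a3* (0.961).

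The wider pathway was followed in 46 further genes in 4 lists, of which those with at least 20 UMIs over tendon and blood neutrophil-like cells were counted. Of the other interleukin 1 family ligands, 1 of 2 was higher in tendon by 2-fold, namely *Il18* (5.08 and 24.0 CPM in blood and tendon), and none lower. *Il1f9*, which encodes interleukin 36 gamma and had the most UMIs of that list, stood at 283 and 383 CPM. Of the other receptors, 1 of 4 was higher, *Il1rl1*, the receptor of interleukin 33, at 1.87 and 9.34 CPM from 7 and 21 UMIs, while the level of *Il18rap*, a chain of the interleukin 18 receptor, was 140 and 208 CPM. Of 11 signal transducers, *Irak2* (12.3 and 114 CPM) and *Irak3* (32.1 and 138 CPM), a kinase and an inhibitory member of the same family, were higher, *Irak4*, the kinase that acts at the start of the cascade, was lower (61.8 and 20.5 CPM), and the adaptor *Myd88* stood at 131 and 109 CPM. Of 13 other inflammasome and pyroptosis genes, 3 were higher and 3 lower. *Aim2* (8.29 and 31.1 CPM), *Mefv* (55.9 and 342 CPM), and *Ninj1* (53.5 and 357 CPM) were higher, and *Nlrp12* (125 and 30.2 CPM) and *Dfna5* (89.6 and 34.7 CPM) were lower. The third gene past 2-fold in that direction was *Naip5*, from 20 and 5 UMIs, with a log2 ratio of -1.27 whose interval (-3.04 to 0.19) included no difference. *Txnip*, with the most UMIs of that list, stood at 555 and 704 CPM. These counts are small and, beside the 16.0% of all genes higher and 16.1% lower in this comparison, nothing is read from them about the lists. The list medians were 1.34, 0.28, 0.21, and -0.14 on the log2 scale, against -0.07 for all genes.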

How the data were processed

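Day 3 libraries of bone marrow, blood, and tendon were analysed. The values are raw UMI counts from 10x 3′ chemistry, which the authors produced in Cell Ranger 5.0.1 and deposited without normalization, and the submitters' processing notes name mm10. The genes and lists were chosen with earlier results of these data known.

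Cells needed 200 detected genes and at most 20% mitochondrial UMIs, which removed 15, 57, and 651 cells. Scrublet in scanpy 1.11.5 scored doublets, and the highest scores were removed at 0.8% per 1000 cells (27, 38, and 198 cells), since its own threshold marked 1, 32, and 6. Each library was clustered alone in Seurat 5.3.0 (R 4.3.3) with 2000 variable features, 30 principal components, and a resolution of 1. The 10 genes and the 4 companion lists, 56 genes, were left out of the variable features. Among the 100 genes leading each cluster by fold, the cell type with the most markers, at least 3, gave the name, and the top 10 settled ties. The bone marrow cluster named B-like held nearly as many NK markers.

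Sums of UMIs have exact Poisson, shares Clopper-Pearson, and ratios exact binomial 95% intervals. Counts of genes past 2-fold cover genes with at least 20 UMIs over both groups. No test was made because each tissue had 1 library, and cells did not serve as replicates of a tissue. Intervals of shares of cells take cells as units, so they cover the drawing of cells within 1 library only. Genes at 0 UMIs were given a limit of 3 UMIs, which lies below the upper end of the exact 95% interval. Log2 ratios from that limit use the point level of the other group and have no interval here. The genes named are the 10 genes, companion genes past 2-fold or with the most UMIs of their list, and the 3 genes most like *Il1b*, *Il1rn*, *Il1r2*, and *Il1r1*. Alternatives numbered 11, and 2 more were added after seeing the data. Scripts were tested on simulated data, with Python 3.11.15, numpy 2.4.6, scipy 1.17.1, pandas 2.3.3, and matplotlib 3.10.9.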

Additional observations from a re-analysis of the deposited data

Results flagged for a closer look

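*Pycard*, which encodes the inflammasome adaptor ASC, differed in opposite directions between cell classes. Between tendon and blood, the log2 ratio was 0.67 (0.32 to 1.02) in neutrophil-like cells and -0.54 (-0.59 to -0.49) in monocyte/macrophage-like cells, with 1 library on each side, and the difference between the classes was not tested. In monocyte-like clusters alone the ratio was 0.14 (0.07 to 0.21). Macrophage markers summed to 1948 CPM in tendon and 120 CPM in blood neutrophil-like cells. *Pycard* stood at 371 CPM in tendon monocyte/macrophage-like cells. The part of macrophage transcripts in the neutrophil-like ratio was not tested.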

How the results depend on the processing

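The tendon to blood ratios of *Il1a*, *Il1b*, *Il1rn*, and *Il1r2* in neutrophil-like cells and the tendon ratios of *Il1b* to *Il1rn* and *Il1r2* kept their direction under the alternatives run for each. The other genes and the tissue ratios of monocyte/macrophage-like cells were not recomputed across these, and *Pycard* turned from -0.54 to 0.14 in monocyte-like clusters alone. On the log2 scale of tendon to blood neutrophil-like cells, *Il1b* (2.56) became 2.415 without doublet removal, 2.408 with the libraries integrated, 2.472 with classes named cell by cell, 2.632 with scaling by the median ratio, and 2.371 as a mean over cells. *Il1a* (9.23 with blood at the limit of 3 UMIs) became 9.059 without doublet removal and 9.057 with integration, and *Il1r2* (2.95) became 2.765, 2.813, and, cell by cell, 2.746. Of the 2 settings added after seeing the data, leaving out the smaller tendon neutrophil-like cluster gave 2.455 for *Il1b*, 8.813 for *Il1a*, and 2.797 for *Il1rn* (3.01), and mature clusters alone gave 2.151, 8.758, and 2.749, and 2.748 for *Il1r2*. Log2 *Il1b* to *Il1rn* in tendon monocyte/macrophage-like cells (3.36) became 3.207 at a resolution of 0.5 and 3.271 cell by cell, and in tendon neutrophil-like cells (3.50) 3.613 without the smaller cluster. Log2 *Il1b* to *Il1r2* (1.315) became 1.412 cell by cell and 1.172 without that cluster. The neutrophil-like share of tendon *Il1b* UMIs (34.82%) became 34.28% with the stricter cell filter, 35.74% without doublet removal, 38.36% cell by cell, and 31.08% without that cluster. The mesenchymal-like share of *Il1r1* (75.76%) became 70.7% at a resolution of 2 and 80.31% cell by cell. Thinning to 500 or 2000 UMIs moved 7 of 8 shares of cells each, with *Il1b* in 82.1% or 98.0% of tendon and 39.7% or 74.0% of blood neutrophil-like cells. Causes were not tested beyond the change of setting itself. No paired analysis was possible because each tissue had 1 library. Few UMIs lay behind *Casp1* in tendon neutrophil-like cells (21), *Il1r1* in neutrophil-like cells (at most 7), and *Il1a* in blood (3 in all).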

Other observations

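Some cells outside the neutrophil-like, monocyte/macrophage-like, dendritic-like, and osteoclast-like classes held transcripts of these genes. An unnamed tendon cluster of 109 cells, led by *Ccl5*, *Cpa3*, and *Ccr7*, held 657 CPM of *Il1b* (590 to 730) but 3.76 CPM of *Il1rn*, from 2 UMIs. Muscle-like tendon cells held 148 CPM of *Il1b* (124 to 175) and 69.2 CPM of *Nlrp3*, at a median of 1924 UMIs per cell. These are the muscle-like cells described above with higher shares after thinning, and the part of background in these levels was not tested. The 34 basophil/mast-like cells of blood had no *Il1b* UMI, while *Nlrp3* stood at 49.4 CPM from 11 UMIs and *Il1rap* at 40.4 CPM from 9 UMIs. Among mesenchymal-like clusters of tendon, *Il1r1* stood at 201 and 181 CPM in the larger clusters and at 27.2 CPM in a cluster of 45 cells led by *Angptl7*, *Comp*, and *Fmod*. Endothelial-like cells led by *Ccl21a* and *Lyve1* held 12.1 CPM of *Il1r1*, against 70.3 CPM in the other endothelial-like cluster.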
